A study of Mus musculus with 8 samples.

Results

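Imprinted genes, which are read from a single parental chromosome in at least some tissues, were examined in whole hippocampus of mice that lack Ctcf in forebrain excitatory neurons. The list held 50 known mouse imprinted genes, taken by gene name from the array annotation and several of them lying in domains with CTCF-bound control regions. Of these, 48 had a probe. A gene counted as measured when a probe was well above background on all arrays of 1 genotype or of both, which held for 39 members, out of 18327 genes so measured among 30139 gene names on the array. Of the 39, 37 were well above background on all arrays of both genotypes, while Ascl2 was kept through the CKO arrays alone and Peg12 through the WT arrays alone.

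The conditional knockout mice (CKO) were C57BL/6, Ctcf loxP/loxP and Camk2a-Cre positive. The controls (WT) were C57BL/6 and Ctcf loxP/loxP without Cre, so both genotypes carried the floxed alleles and effects of Cre itself cannot be told apart from those of Ctcf loss. Camk2a-Cre acts in excitatory forebrain neurons, whereas RNA came from the whole hippocampus, which also holds glia, interneurons and vessel cells outside the reach of this Cre. Each sample was a pool of 3 mice, with 3 pools per genotype. The genotypes were matched by pool number. Pool 1 mixed the sexes, with 2 females and 1 male of 19 to 23 weeks, whereas pool 2 was made of 3 females of 18 to 19 weeks and pool 3 of 3 males of 15 to 17 weeks. All mice had been through behavioural tests. In such bulk tissue, fewer cells of a type and less RNA per cell cannot be told apart. The arrays read the summed output of both parental alleles, so a second allele becoming active and a higher output of the first cannot be told apart either.

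Imprinted genes lie in clusters in which a control region, methylated on the chromosome from 1 parent, decides which allele of each neighbour is read. The zinc-finger protein CTCF sits at many insulators and helps cohesin to form chromatin loops. At the H19/Igf2 control region it binds only the unmethylated maternal copy, where it keeps the shared enhancers away from Igf2, and it also binds control regions of the Rasgrf1, Kcnq1, Meg3 and Peg13 domains. Many of these genes act in growth, metabolism and behaviour, and a number are abundant in neurons. The lists of members read from the paternal and from the maternal allele held 28 and 17 genes, and for 5 members (Igf2r, Grb10, Ddc, Atp10a and Gnas) the allele depends on the isoform or tissue. Alleles and domains were assigned from general knowledge of mouse imprinting and were not measured here. The assignment is less settled in brain for Ins2, Ppp1r9a, Copg2 and Trappc9.

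Several of these domains are organised around long non-coding RNAs that do not code for protein and exist in several forms, so the stretch that a probe reads decides what was measured. The probes whose values carry the results on non-coding members are therefore shown as the files give them, each 60 bases long and with no base marked.
H19, chromosome 7: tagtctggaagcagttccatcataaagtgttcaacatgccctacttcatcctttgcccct
Kcnq1ot1, chromosome 7: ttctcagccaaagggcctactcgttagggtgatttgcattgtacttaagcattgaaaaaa
Airn, brighter probe, chromosome 17: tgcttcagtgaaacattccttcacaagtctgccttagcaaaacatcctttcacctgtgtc
Airn, dimmer probe, chromosome 17: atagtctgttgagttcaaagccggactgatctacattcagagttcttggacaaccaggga
Meg3, brightest probe, chromosome 12: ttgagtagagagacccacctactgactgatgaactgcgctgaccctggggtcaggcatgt
Mirg, brightest probe, chromosome 12: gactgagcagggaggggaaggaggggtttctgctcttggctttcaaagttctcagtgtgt
Mirg, second probe, chromosome 12: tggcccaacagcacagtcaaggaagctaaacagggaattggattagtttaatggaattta
Mirg, dimmest probe, chromosome 12: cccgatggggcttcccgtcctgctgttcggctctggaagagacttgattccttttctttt
Peg13, chromosome 15: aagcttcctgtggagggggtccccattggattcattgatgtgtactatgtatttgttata
The other probes of the same genes share at most a short stretch with these, since among all pairs of probes of a member the only overlap over 9 bases was one of 26 bases between a pair of Plagl1 probes. The 61 measured member probes held 33.3% to 55.0% G and C, with a median of 43.3%, against a median of 41.7% over the 39429 probes of the array, and 0 member probes held a run of 6 GAA units.

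Ctcf itself was read by 1 probe at 0.18, 0.16 and 0.05 in CKO pools 1 to 3, against 0.83, 1.12 and 1.04 in WT pools 1 to 3. A level is the log2 processed signal of a probe relative to the 75th percentile of its array, and a difference is CKO minus WT on that log2 scale. The groups did not overlap, with a difference of -0.87 (SE 0.13, 3 pools per genotype). In limma the adjusted p was 0.142, against 0.0290 in the fit that took the pool number as a block. The block was used because same-numbered pools shared sex and age. They also shared array slides, with pool 2 on slide 1, pool 3 on slide 2 and pool 1 on both. Sex, age and slide therefore cannot be told apart in the block. Same-numbered pools also deviated together in pools 1 and 2, but in pool 3 barely more than pools of different numbers. Over all genes, limma called 8 genes at an adjusted p under 0.05 (0.0437%), 7 higher and 1 lower in CKO pools, and 105 genes with the block (0.573%), 73 of them higher. An unadjusted p under 0.05 was found for 5.47% of genes, and 8.34% with the block. Tissue identity was checked with hippocampal excitatory neuron markers, of which 11 of 12, Camk2a and Neurod6 among them, were well above background and Prox1 was not. By sign 5 of these were higher and 6 lower in CKO pools. Wfs1 (-0.91, SE 0.12) and C1ql2 (-1.10, SE 0.30) were the 2 that passed the adjusted threshold, with the block only.

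None of the 39 measured imprinted genes passed the adjusted threshold, in the limma test (0 of 39, against 0.0437% of all genes) or with the pool number as a block (0 of 39, against 0.573%). At an unadjusted p under 0.05 there were 4 members (10.3% of 39, against 5.47% of all genes), with Igf2, Kcnq1ot1 and Mirg higher and Mcts2 lower in CKO pools. With the block there were 6 (15.4%, against 8.34% of all genes), Peg3 and Snrpn being the others, both higher. The CKO pools lay wholly above the WT pools for Kcnq1ot1, Mirg, Peg3 and Snrpn (10.3% of members, against 5.70% of all genes) and wholly below them for Dio3 and Mcts2 (5.13%, against 5.62%). An exact permutation test of 3 pools against 3 could not give a two-sided p below 0.1, so separate pools alone do not reach the threshold for a single gene. The median difference over the 39 members was 0.057, with 24 higher and 15 lower, beside -0.0031 over all genes, with 9052 higher and 9275 lower. Without Ascl2 and Peg12 there were 23 higher and 14 lower, with the same median.

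By parental allele, the 22 measured paternally expressed members had a median difference of 0.091, with 14 higher and 8 lower, and the 13 maternally expressed members had 0.028, with 8 higher and 5 lower. Without Peg12 the paternal median was 0.13, and without Ascl2 the maternal one was 0.016. The maternal median had no stable sign, at -0.027 with median scaling, -0.017 on slide 2 alone, -0.036 without WT pool 3 and -0.022 without CKO pool 1. With the mean of a gene's probes the maternal median was 0.072, above the paternal 0.045. The 4 members whose allele varies had a median of 0.032, with 2 in each direction. Differences of single members ran from -1.17 (Peg12) to 0.69 (Igf2) in the paternal group and from -0.24 (Commd1) to 0.48 (Mirg) in the maternal group. Over all genes the 10th and 90th percentiles of the differences were -0.24 and 0.28, a range that holds 80% of genes by construction, and 26 of 39 members (66.7%) lay inside it, with 9 above and 4 below. For 18 members the difference exceeded its SE, 12 higher and 6 lower, and these are the ones given with a signed difference. The share of all genes beyond their SE was not counted, so this serves only as a rule for printing. The other 21 had differences between -0.19 and 0.26, each within its SE, and 95% intervals reaching from -0.90 to 1.13 at the widest.

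**Figure D1:**
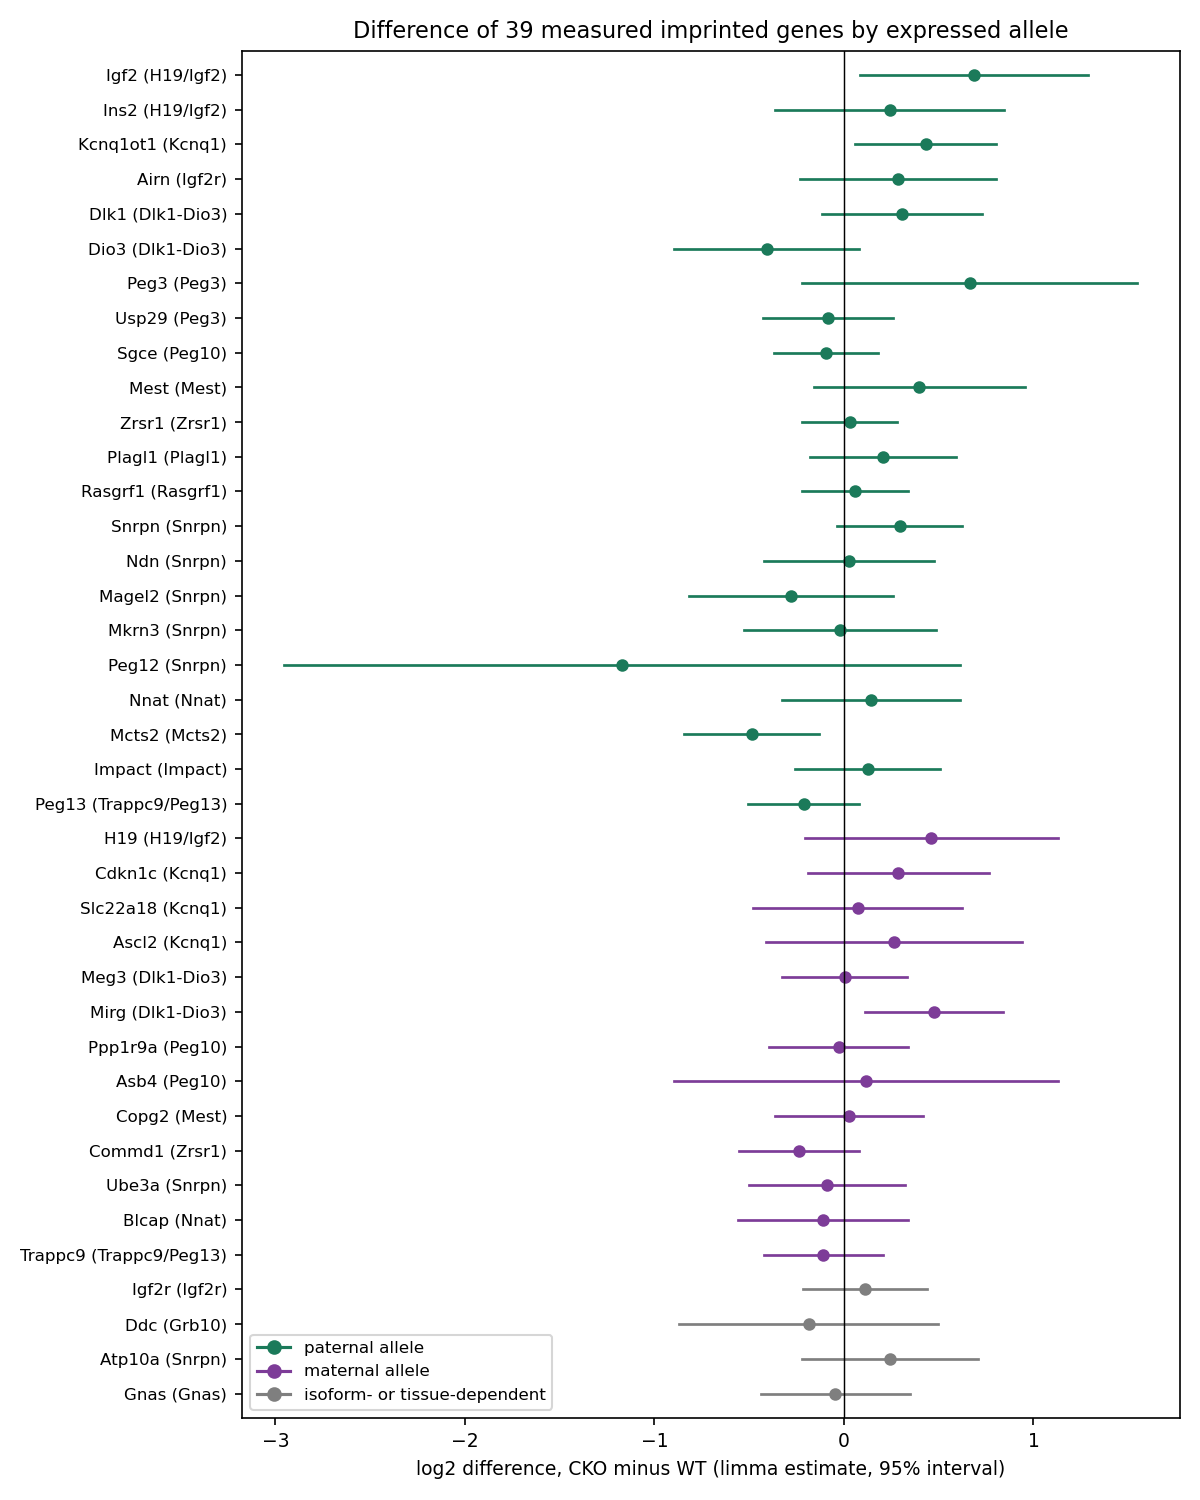
The log2 difference, CKO minus WT, is plotted for each of the 39 measured imprinted genes with its 95% interval from limma, grouped by expressed allele and labelled with the domain. The intervals of Igf2, Kcnq1ot1, Mirg and Mcts2 leave out 0, none of these passed the adjusted threshold, and Peg12 has the widest interval.

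The H19/Igf2 domain on chromosome 7 is the textbook case of a CTCF insulator. Its 3 members all had a higher mean in CKO pools, Ins2 within its SE, and 0 passed the adjusted threshold. Over all genes 9052 were higher and 9275 lower. Igf2, which encodes a fetal growth factor read from the paternal allele, stood at -1.88, -1.86 and -2.59 in CKO pools 1 to 3, against -2.73, -2.53 and -3.14 in WT pools 1 to 3. CKO pools 1 and 2 lay above every WT pool, while CKO pool 3 lay just below WT pool 2. The difference was 0.69 (SE 0.26, limma adjusted p = 0.836, and 0.209 with the block). It was 0.70 with the slide as a block, 0.82 on slide 1 alone and 0.63 on slide 2 alone. Pool 1 of each genotype was on both slides, so values per slide, here and below, share RNA and are not separate replicates. H19, the maternal non-coding RNA that competes with Igf2 for the shared enhancers, stood at -3.63, -2.93 and -3.82 in CKO pools, against -3.76, -4.29 and -3.71 in WT pools. The groups overlapped, CKO pool 2 being high and WT pool 2 low, and the difference was 0.46 (SE 0.29). It was 0.19 without CKO pool 2 and 0.28 without WT pool 2. On slide 1, which held both second pools, it was 0.88, and on slide 2 it was -0.12. A second H19 probe was well above background on 0 CKO arrays and 1 WT array and was left out. Ins2, an insulin gene next to Igf2, stood at -0.74, -1.16 and -1.12 in CKO pools, against -0.81, -1.81 and -1.11 in WT pools. The groups overlapped.

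Igf2 is abundant in the choroid plexus and leptomeninges, where mice express it from both parental alleles, so markers of those tissues were set beside it. All 18 choroid plexus markers were measured and had a higher mean in CKO pools, with a median difference of 0.82 and 0 past the adjusted threshold. At an unadjusted limma p under 0.05 there were 4 of 18, against 5.47% of all genes. With the block there were 12 of 18, against 8.34% of all genes. Among the 18, Cldn2, Aqp1 and Tmem72 were kept through the CKO arrays alone. They were well above background on 4 CKO arrays each, and on 3, 3 and 2 WT arrays. Relative to the WT mean, the choroid plexus list averaged 0.90, 0.97 and 0.49 in CKO pools 1 to 3, against -1.14, 0.44 and 0.71 in WT pools 1 to 3. The low WT value came from pool 1 alone. Ttr, the transthyretin gene that defines this epithelium, stood at 6.36, 5.95 and 5.83 in CKO pools, against 4.82, 5.65 and 6.21 in WT pools. Without WT pool 1, the Igf2 difference was 0.72, and over the 6 repeats that left out 1 pool it ran from 0.51 to 0.92. The 16 meningeal and perivascular fibroblast markers had a median difference of -0.07, with 4 higher and 12 lower, and averaged 0.13, 0.01 and -0.26 in CKO pools, against 0.10, -0.11 and 0.01 in WT pools. All 16 were well above background on every array. The part of choroid plexus tissue in the Igf2 values was not tested.

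**Figure D2:**
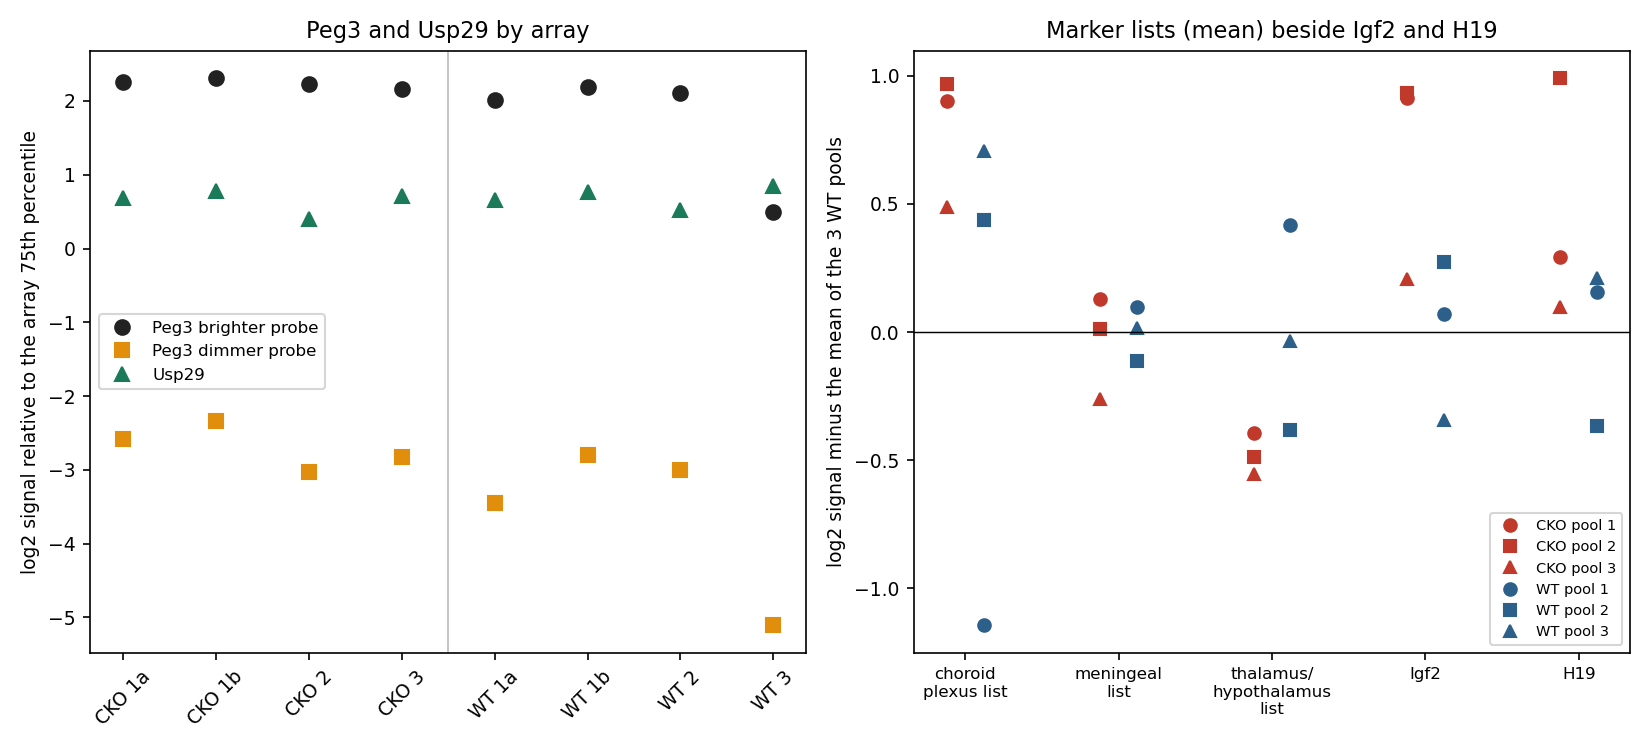
In the left panel, the log2 signal of both Peg3 probes and of Usp29 is plotted on each array, and both Peg3 probes are low in WT pool 3 while Usp29 is not. In the right panel, the mean of each marker list and the values of Igf2 and H19 are plotted per pool relative to the WT mean, with the choroid plexus list at -1.14 in WT pool 1 and between 0.44 and 0.97 in the 5 other pools.

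In the neighbouring Kcnq1 domain, a long antisense transcript, Kcnq1ot1, is read from the paternal chromosome and silences a set of growth-restraining genes on it. The 3 members above background in both genotypes, Kcnq1ot1, Cdkn1c and Slc22a18, had a higher mean in CKO pools. Slc22a18 lay within its SE, and 0 passed the adjusted threshold. Kcnq1ot1 stood at -1.19, -1.52 and -1.25 in CKO pools 1 to 3, against -1.73, -1.73 and -1.80 in WT pools 1 to 3. The groups did not overlap and the SD over the 3 WT pools was 0.04. The difference was 0.43 (SE 0.16, limma adjusted p = 0.817, and 0.504 with the block), with 0.44 under the slide block, 0.35 on slide 1 and 0.56 on slide 2. Its second probe was above background on 1 array of each genotype and gives no value. The potassium channel gene Kcnq1, on the opposite strand, was not among the measured genes. Cdkn1c, a cell cycle inhibitor read from the maternal allele, stood at -0.82, -1.18 and -1.18 in CKO pools, against -1.66, -0.998 and -1.39 in WT pools. The groups overlapped and the difference was 0.29 (SE 0.21). It was 0.17 without CKO pool 1, 0.13 without WT pool 1 and 0.46 without WT pool 2. Slc22a18, an organic cation transporter gene, stood at -1.31, -1.33 and -2.14 in CKO pools, against -1.71, -1.72 and -1.57 in WT pools, with CKO pool 3 the lowest of all. Ascl2, a placental transcription factor gene, stood at -2.98, -3.73 and -3.91 in CKO pools, against -4.02, -3.94 and -3.46 in WT pools. It was above background on all 4 CKO arrays and 3 of 4 WT arrays, so its place among the measured genes rests on the CKO arrays. Phlda2, a placental growth restraint gene, was above background on 1 CKO array and 0 WT arrays.

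The Igf2r domain on chromosome 17 follows a similar plan, with the antisense RNA Airn read from the paternal allele across the gene for the receptor that clears insulin-like growth factor 2. Igf2r ranged from -0.26 to -0.04 in CKO pools, against -0.35 to -0.09 in WT pools. Airn was read by a brighter probe at -0.79, -1.20 and -1.30 in CKO pools, against -1.001, -1.71 and -1.43 in WT pools, a difference of 0.28 (SE 0.23) with overlapping groups. It was 0.13 without CKO pool 1, 0.12 without WT pool 2 and 0.47 without WT pool 1. A dimmer Airn probe stood at -2.03, -2.48 and -2.19 in CKO pools, against -2.78, -2.83 and -3.18 in WT pools. There the groups did not overlap and the difference was 0.69 (SE 0.21), with a limma adjusted p of 0.632 when each probe was tested on its own. Both measured probes thus pointed the same way, and 2 further Airn probes were above background on 0 arrays.

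The Dlk1-Dio3 domain on chromosome 12 carries a chain of maternal non-coding RNAs, Meg3, Rian and Mirg, that host snoRNAs and microRNAs, and the paternal protein-coding genes Dlk1, Rtl1 and Dio3. Its measured members did not move one way. Mirg and Dlk1 were higher and Dio3 lower in CKO pools, Meg3 lay within its SE, and 0 passed the adjusted threshold. Mirg, whose RefSeq interval in GRCm38.p6 holds 10 microRNA hairpins, among them Mir154, Mir377, Mir409 and Mir410, stood at 2.57, 2.19 and 2.40 in CKO pools 1 to 3, against 2.10, 1.65 and 1.98 in WT pools 1 to 3. The pool values did not overlap, although the second array of WT pool 1, at 2.285, lay above CKO pool 2. The difference was 0.48 (SE 0.16, limma adjusted p = 0.727, and 0.184 with the block). It was 0.48 with the slide as a block, 0.55 on slide 1 and 0.40 on slide 2. The second Mirg probe printed above gave a difference of 0.32 (SE 0.22), and the one after it lay within its SE. The microRNAs themselves are not read by these probes.

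Meg3, the first RNA of that maternal chain, stood at 4.92, 4.82 and 4.86 in CKO pools, against 4.62, 4.93 and 5.04 in WT pools. The 3 CKO pools lay inside the WT range, and the 95% interval of the difference ran from -0.33 to 0.33. Its 2 other probes differed in sign from each other, each within its SE. Dlk1, a membrane-bound inhibitor of differentiation related to Notch ligands, stood at -0.12, -0.33 and -0.36 in CKO pools, against -0.36, -0.44 and -0.93 in WT pools. WT pool 3 was the lowest, the difference was 0.31 (SE 0.18), and without WT pool 3 it was 0.13. Dio3, the deiodinase that inactivates thyroid hormone, stood at -3.30, -3.39 and -3.33 in CKO pools, against -2.67, -2.87 and -3.27 in WT pools. The CKO pools were the 3 lowest, by a small step from WT pool 3. On its first array CKO pool 1 read -3.22, above WT pool 3. The difference was -0.41 (SE 0.21, limma adjusted p = 0.986). It was -0.42 under the slide block, -0.60 on slide 1 and -0.33 on slide 2. Rtl1, a retrotransposon-derived gene, was above background on 0 arrays, and Rian had no probe.

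**Figure D3:**
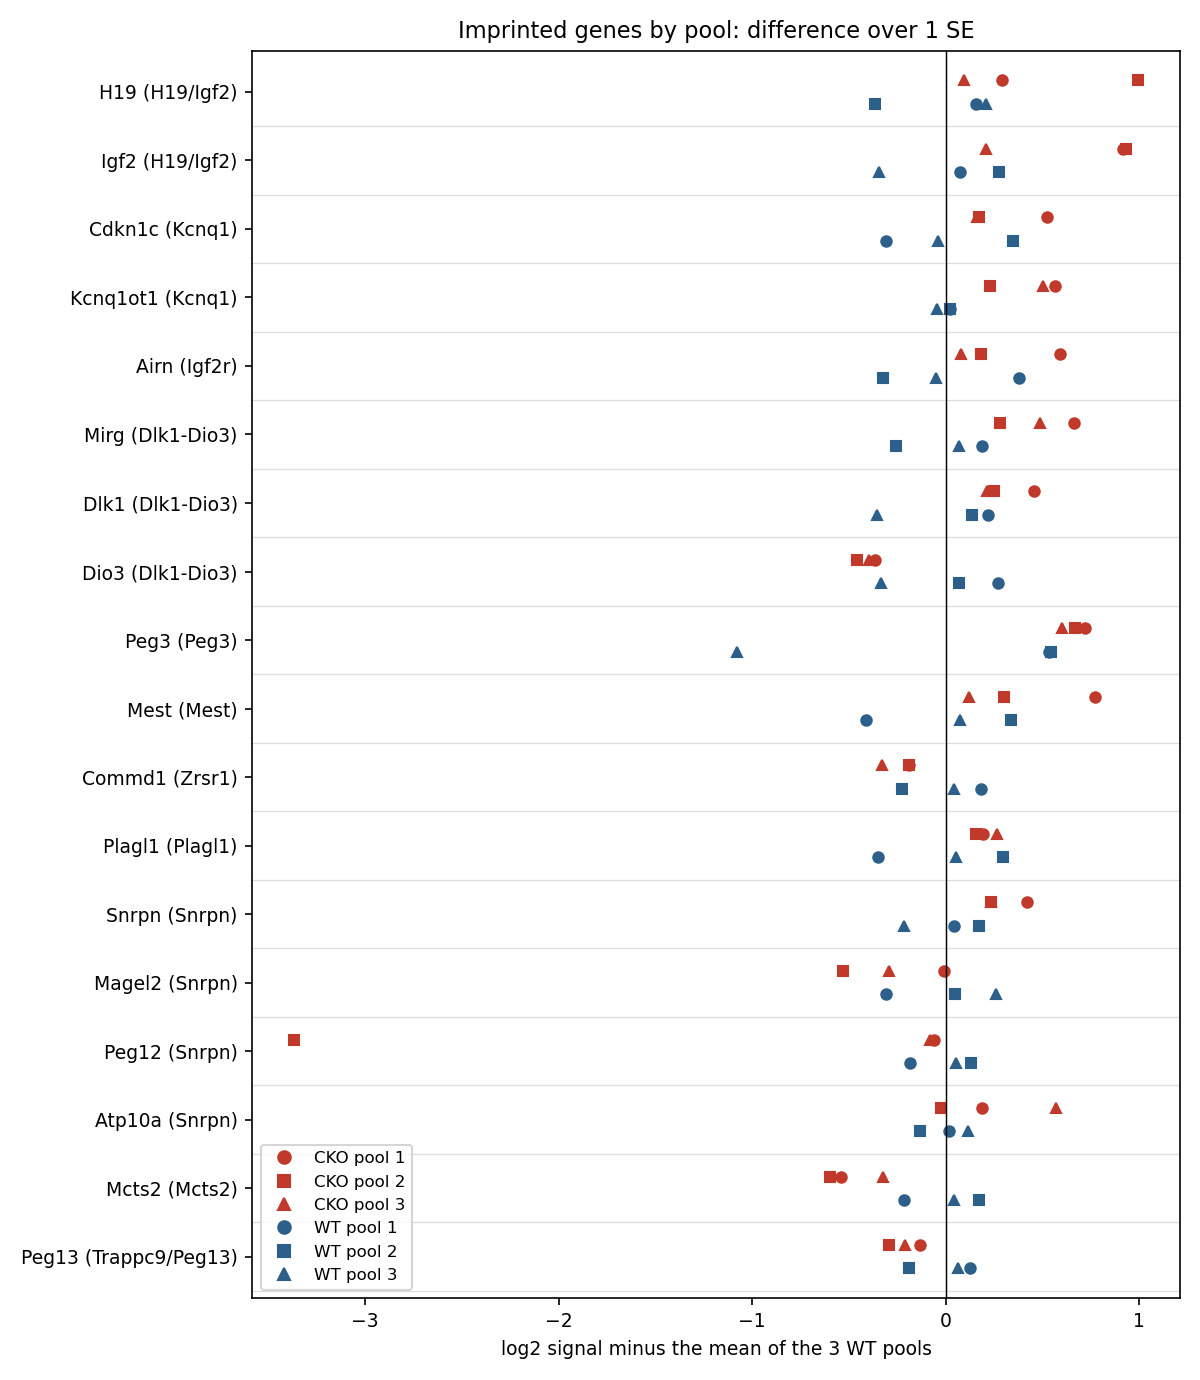
The log2 signal of each pool minus the mean of the 3 WT pools is plotted for the 18 members whose difference exceeded its SE, with CKO pools above WT pools in each row. Kcnq1ot1, Mirg, Peg3 and Snrpn have all CKO pools to the right of the WT pools, Dio3 and Mcts2 have them to the left, and single pools stand far out for Peg3 (WT pool 3) and Peg12 (CKO pool 2).

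The Peg3 domain, also on chromosome 7, holds Peg3, a paternal zinc-finger gene tied to maternal care and energy balance in mice, beside the ubiquitin protease gene Usp29. Peg3 stood at 2.28, 2.23 and 2.17 in CKO pools 1 to 3, against 2.10, 2.11 and 0.49 in WT pools 1 to 3. The CKO pools lay above all WT pools, though the second array of WT pool 1, at 2.185, lay above CKO pool 3. The size of the difference, 0.66 (SE 0.39, limma adjusted p = 0.999, and 0.472 with the block), came from WT pool 3. Without WT pool 3 it was 0.12. It was 0.63 with the slide as a block, 0.19 on slide 1 and 0.90 on slide 2, which held that pool. The second Peg3 probe showed the same low pool, at -2.45, -3.02 and -2.83 in CKO pools, against -3.12, -3.00 and -5.11 in WT pools, with overlap among the other pools. That probe was well above background on 4 CKO arrays and 3 WT arrays, and so was kept through the CKO arrays alone. Usp29, which lies beside Peg3 and is read from the same allele, stood at 0.73, 0.40 and 0.71 in CKO pools, against 0.71, 0.53 and 0.85 in WT pools, so WT pool 3 was its highest WT pool. Zim1, the maternal neighbour, was above background on 0 CKO arrays and 1 WT array.

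In the Snrpn domain, the mouse counterpart of the Prader-Willi and Angelman syndrome region, a paternal control region drives Snrpn, Ndn, Magel2, Mkrn3 and Peg12, while neurons read Ube3a from the maternal allele. Of the 7 measured members, Ndn, Mkrn3 and Ube3a lay within their SE. By sign alone 3 were higher and 4 lower in CKO pools, with a median difference of -0.02 and 0 past the adjusted threshold. Snrpn, which encodes a spliceosome protein, stood at 5.09, 4.90 and 4.90 in CKO pools 1 to 3, against 4.71, 4.84 and 4.46 in WT pools 1 to 3. The groups did not overlap, and the difference was 0.29 (SE 0.14, limma adjusted p = 0.978, and 0.519 with the block), with 0.30 under the slide block, 0.26 on slide 1 and 0.37 on slide 2. Without WT pool 3 it was 0.19. A second Snrpn probe stood at 3.75, 3.71 and 3.63 in CKO pools, against 3.02, 3.53 and 3.17 in WT pools, again without overlap, with a difference of 0.46 (SE 0.15, probe-level limma adjusted p = 0.737). The dimmest pointed the other way, at 0.95, 0.93 and 0.91 in CKO pools, against 0.76, 1.16 and 1.40 in WT pools, with a difference of -0.18 (SE 0.17) and overlapping groups. The 3 Snrpn probes thus did not point one way. Snurf, which shares its transcript with Snrpn, had no probe under its own name.

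Ndn, the gene for the growth suppressor necdin, stood at 4.09, 3.78 and 3.75 in CKO pools, against 4.26, 3.70 and 3.58 in WT pools. The pool 1 values average unlike arrays, at 3.96 and 4.23 in CKO and 3.88 and 4.64 in WT. Magel2, a ubiquitin ligase regulator important in the hypothalamus, stood at -3.21, -3.72 and -3.49 in CKO pools, against -3.50, -3.14 and -2.94 in WT pools. The groups overlapped and the difference was -0.28 (SE 0.24). It was -0.15 without CKO pool 2 and also without WT pool 3, and -0.43 without WT pool 1. Mkrn3, a ring-finger gene, stood at -4.43, -4.38 and -4.56 in CKO pools, against -4.19, -4.64 and -4.49 in WT pools, with the CKO pools inside the WT range. Peg12 stood at -2.58, -5.88 and -2.60 in CKO pools, against -2.70, -2.39 and -2.47 in WT pools. The largest difference of any member, -1.17 (SE 0.78), thus came from CKO pool 2, where the probe was not well above background. Without that pool it was -0.07, and on slide 2, which did not hold it, it was 0.13.

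Ube3a, the ubiquitin ligase gene lost in Angelman syndrome, stood at -0.48, -0.54 and -0.57 in CKO pools, against -0.26, -0.25 and -0.81 in WT pools. The CKO pools lay inside the WT range. A dimmer Ube3a probe stood at -3.90, -3.98 and -4.21 in CKO pools, against -3.93, -2.83 and -3.52 in WT pools, where WT pool 2 was high, and its difference was -0.60 (SE 0.29, probe-level limma adjusted p = 0.989). This dimmer probe cleared background on 4 CKO arrays and 3 WT arrays. Atp10a, a phospholipid flippase gene, stood at -2.05, -2.27 and -1.67 in CKO pools, against -2.22, -2.38 and -2.13 in WT pools, a difference of 0.24 (SE 0.20) with overlap. Without CKO pool 3 it was 0.08, and without CKO pool 2 it was 0.38. Thalamic and hypothalamic markers, as a sign of neighbouring tissue in which Magel2 and other members are expressed, averaged -0.39, -0.49 and -0.55 in CKO pools relative to the WT mean, against 0.42, -0.38 and -0.04 in WT pools. Of 10 such markers above background 3 were higher and 7 lower in CKO pools, and Pmch and Agrp were not above background throughout either genotype. At an unadjusted limma p under 0.05 there were 0, and with the block 4, all lower (Avp, Oxt, Prkcd and Trh), against 8.34% of all genes. Avp stood at 1.47, -2.41 and -1.84 in WT pools 1 to 3, and Oxt at 1.06, -2.72 and -1.74. The part of such tissue in the values of Magel2 was not tested.

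**Figure D4:**
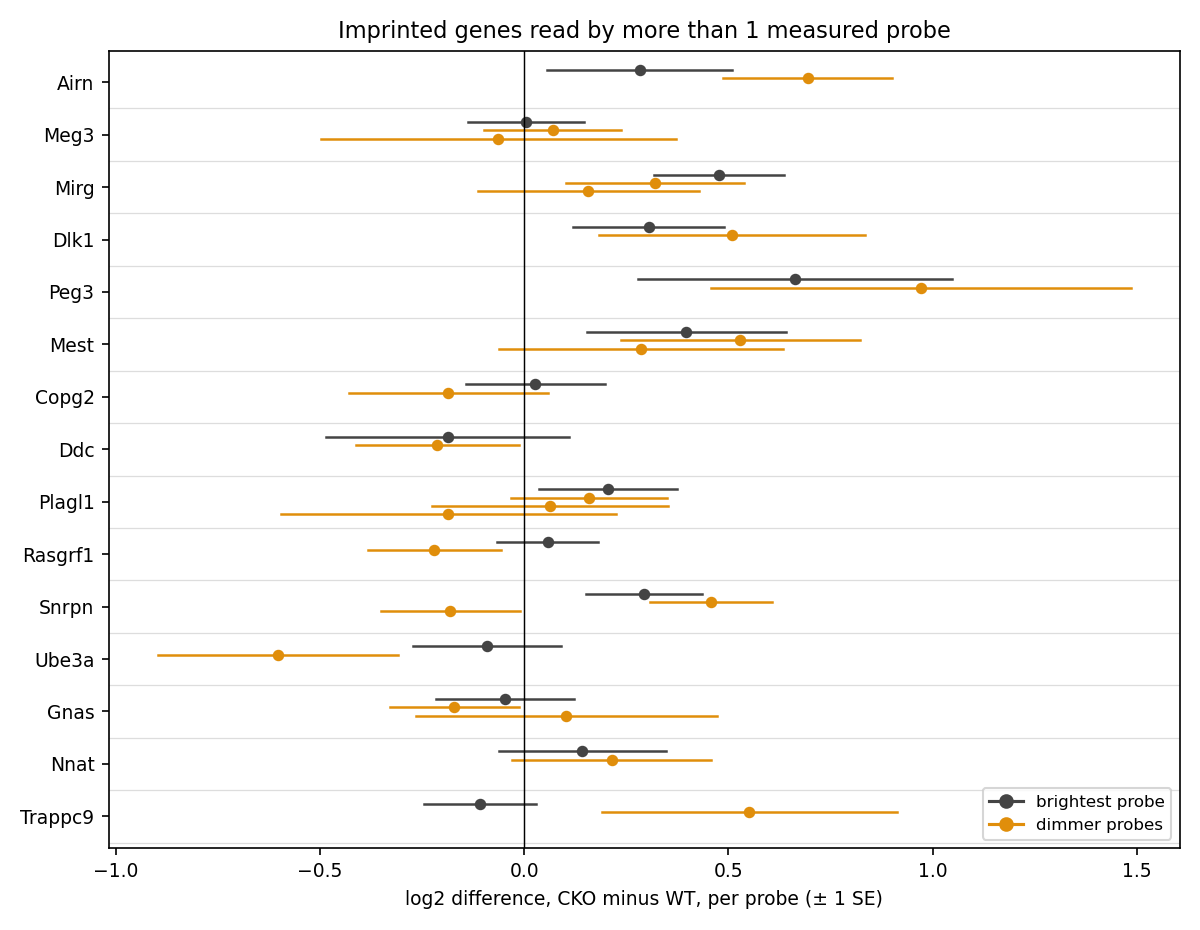
The log2 difference, CKO minus WT, is plotted with 1 SE for every measured probe of the 15 members that had more than 1. In 7 members (Copg2, Gnas, Meg3, Plagl1, Rasgrf1, Snrpn and Trappc9) the probes fall on both sides of 0. All probes of Airn, Dlk1, Mest, Mirg, Nnat and Peg3 lie to the right, and all those of Ddc and Ube3a to the left. The dimmer probes of Dlk1, Peg3, Trappc9 and Ube3a were kept through the CKO arrays alone (4 CKO and 3 WT arrays each).

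The Peg10 and Mest domains lie on chromosome 6. In the first, Sgce, the epsilon-sarcoglycan gene mutated in human myoclonus dystonia, stood at 1.57, 1.52 and 1.43 in CKO pools 1 to 3, against 1.72, 1.48 and 1.62 in WT pools 1 to 3. Ppp1r9a, which encodes the actin-binding synaptic protein neurabin, stood at 2.91, 2.82 and 3.03 in CKO pools, against 3.24, 2.93 and 2.67 in WT pools. Asb4, an ankyrin-repeat and SOCS-box gene, stood at -3.10, -4.11 and -4.04 in CKO pools, against -2.90, -4.45 and -4.24 in WT pools. All 3 genes overlapped between genotypes and lay within their SE, and Asb4 differed more between pool 1 and the other pools than between genotypes. Peg10, a retrotransposon-derived placental gene, and Calcr, the calcitonin receptor gene, were above background on 0 arrays. Mest, a paternal gene of the hydrolase fold, ranged from -1.07 to -0.42 in CKO pools, against -1.60 to -0.85 in WT pools, a difference of 0.40 (SE 0.24). It was 0.21 without CKO pool 1 and 0.19 without WT pool 1. A second Mest probe gave 0.53 (SE 0.29), and the dimmest lay within its SE. Copg2, a coat protein gene beside Mest, stood at 0.56, 0.83 and 0.86 in CKO pools, against 0.53, 1.04 and 0.59 in WT pools, with its 2 probes on opposite sides of 0.

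The Rasgrf1 and Peg13 domains also have CTCF-bound control regions. Rasgrf1, a calcium-activated exchange factor for Ras that works in memory circuits and is paternal in the neonatal brain, stood at 2.40, 2.40 and 2.59 in CKO pools 1 to 3, against 2.32, 2.54 and 2.37 in WT pools 1 to 3. The groups overlapped, and the 95% interval of the difference ran from -0.22 to 0.34. A second Rasgrf1 probe had the opposite sign, with 0.92, 0.40 and 0.89 in CKO pools, against 0.90, 0.99 and 0.99 in WT pools and CKO pool 2 low. Peg13, a paternal non-coding RNA within an intron of Trappc9, stood at 2.74, 2.58 and 2.66 in CKO pools, against 3.00, 2.68 and 2.93 in WT pools. In each numbered pair the CKO pool was lower, though the groups overlapped, and the difference was -0.21 (SE 0.13, limma adjusted p = 0.999). Trappc9, a vesicle-trafficking gene read preferentially from the maternal allele in brain, stood at 2.76, 2.86 and 2.84 in CKO pools, against 3.13, 2.69 and 2.96 in WT pools. These overlapped, and a dimmer Trappc9 probe, above background on 4 CKO arrays and 3 WT arrays, gave a difference of 0.55 (SE 0.36).

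Mcts2, on chromosome 2, was the only 1 of the 4 members at an unadjusted p under 0.05 without the block that was lower in CKO pools. It is a paternal retrocopy of Mcts1, a translation re-initiation factor gene, and sits within an intron of H13. Mcts2 stood at -0.46, -0.52 and -0.24 in CKO pools 1 to 3, against -0.14, 0.25 and 0.13 in WT pools 1 to 3. The CKO pools were again the 3 lowest, although the arrays of WT pool 1 read 0.16 and -0.43, the second below CKO pool 3. The difference was -0.49 (SE 0.16, limma adjusted p = 0.667, and 0.348 with the block). It was -0.48 under the slide block, -0.63 on slide 1 and -0.26 on slide 2. Its source gene Mcts1 stood at 0.99, 1.34 and 1.04 in CKO pools, against 0.61, 1.39 and 1.504 in WT pools, and its host H13 stood at 1.59, 1.78 and 1.57 in CKO pools, against 1.32, 1.84 and 1.81 in WT pools. Neither was separated between genotypes. Whether the Mcts2 probe also binds Mcts1 transcript was not tested.

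The remaining domains overlapped between genotypes. Gnas, the gene for the stimulatory G protein alpha subunit, stood at 5.99, 5.81 and 5.76 in CKO pools 1 to 3, against 6.23, 5.73 and 5.74 in WT pools 1 to 3, and its 3 measured probes lay on both sides of 0. Nespas, its antisense RNA, was above background on 0 arrays. Plagl1, a zinc-finger regulator of other imprinted genes in mice, stood at 2.77, 2.74 and 2.84 in CKO pools, against 2.23, 2.88 and 2.63 in WT pools, a difference of 0.21 (SE 0.17), with 1 of its 4 probes below 0. Without WT pool 1 the Plagl1 difference was 0.03, and without WT pool 2 it was 0.35. Ddc, the decarboxylase that makes dopamine and serotonin, stood at -0.82, -0.41 and -0.42 in CKO pools, against -0.997, -0.36 and 0.28 in WT pools, and its neighbour Grb10, an adaptor that dampens insulin receptor signalling, was above background on 0 arrays. Commd1, a copper homeostasis gene that hosts Zrsr1 in an intron, ranged from 1.36 to 1.51 in CKO pools, against 1.47 to 1.88 in WT pools, a difference of -0.24 (SE 0.14), and -0.15 without WT pool 1. Zrsr1, a splicing factor retrocopy, ranged from 2.09 to 2.26 in CKO pools, against 2.14 to 2.18 in WT pools. Nnat, the neuronatin gene, and Blcap, in whose intron it lies, ranged from 3.06 to 3.32 and from -0.38 to -0.05 in CKO pools, against 2.57 to 3.40 and -0.39 to 0.29 in WT pools. Impact, a regulator of the translation kinase Gcn2, ranged from 2.51 to 2.78 in CKO pools, against 2.23 to 2.83 in WT pools. Inpp5f was above background on 1 CKO array and 0 WT arrays, and Zdbf2 on 0 arrays.

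**Figure D5:**
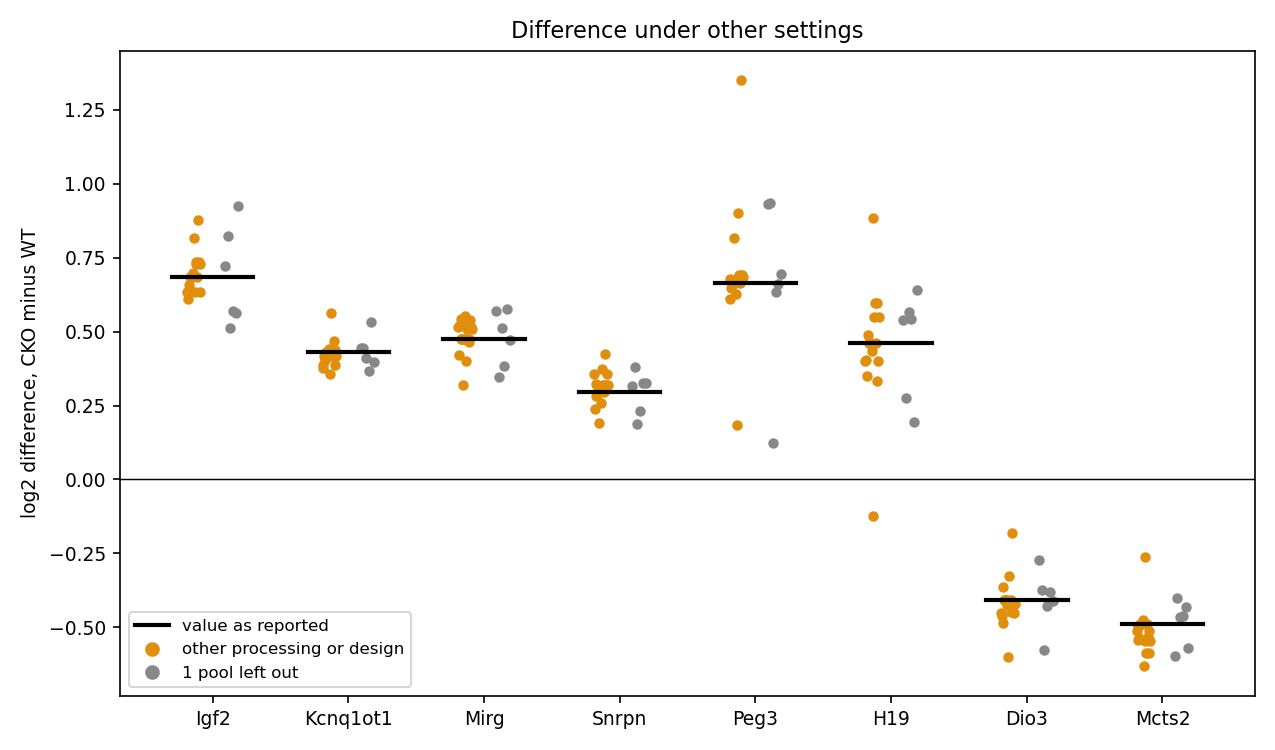
The log2 difference, CKO minus WT, is plotted for 8 members as reported (black line), under other processing or designs (orange) and with 1 pool left out (grey). Mirg, Kcnq1ot1, Igf2 and Snrpn stay above 0 and Dio3 and Mcts2 below 0 throughout, H19 reaches -0.12 on slide 2 alone, and Peg3 reaches 0.12 without WT pool 3.

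Genes around imprinting that are not members were counted in the same fit. Of 29 other imprinted genes 23 were measured, of which 11 were higher and 12 lower in CKO pools, with a median difference of -0.01. Of these 0 passed the adjusted threshold, and 0 had an unadjusted p under 0.05 without the block. With the block 2 did (of 23, against 8.34% of all genes), both higher. These were Ago2, which encodes an Argonaute protein (difference 0.68, SE 0.31), and Pon3, a lactonase gene (difference 0.57, SE 0.27). Of 20 imprint maintenance genes and CTCF partners, such as Zfp57, Trim28, Dnmt1 and the cohesin genes Smc1a, Smc3 and Rad21, 19 were measured, 6 higher and 13 lower, with a median of -0.05 and 0 by either measure, with the block or without it. Rad21, the cohesin subunit that closes the ring, stood at 2.89, 2.91 and 2.92 in CKO pools, against 2.92, 2.91 and 3.05 in WT pools. Of 15 genes of the insulin-like growth factor axis 10 were measured, 6 higher and 4 lower, with a median of 0.02 and likewise 0. Igfbp2, which binds both insulin-like growth factors, had a difference of 0.38 (SE 0.19), and Igf1r, their signalling receptor, had -0.25 (SE 0.15).

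Promoter windows from RefSeq (GRCm38.p6, 250 bases before to 50 after each start) were searched on both strands for the CTCF core letters CCNNNAGNNGGC. Of 59 windows of 40 matched members 4 held them (6.78%), against 2828 of 32851 windows of all genes (8.61%). The matches are shown because they are the only ones among member promoters, and each is written in the direction of its gene, in capitals throughout. The Rian match reads in the direction of the motif, and the 3 others match on its reverse complement.
Gnas, chr2:174284168-174284179, plus-strand gene: GCCACCTGCCGG
Peg12, chr7:62464694-62464705, minus-strand gene: GCCTTCTGGTGG
Rian, chr12:109603952-109603963, plus-strand gene: CCCTCAGGGGGC
Dio3, chr12:110279244-110279255, plus-strand gene: GCCGCCTCGAGG
Of these, Dio3 was below WT in all CKO pools, the Peg12 value rested on 1 pool, Gnas overlapped and Rian had no probe. A match is a description of letters, control regions outside these windows were not searched, and binding was not measured.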

How the data were processed

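RNA of 6 pools (3 CKO, 3 WT) was measured on 8 Agilent 1-colour arrays on 2 slides, pool 1 of each genotype on both. Spot intensity in the deposited scanner files comes from Agilent Feature Extraction, in version 11.5 per the submitters' processing notes. Per the file headers, the processed intensity is background-subtracted and detrended, with low-value surrogates and no scaling between arrays. From the deposited files, flags marking outlier spots and signal well above background were also taken. The deposited value table of the series was an alternative, for which no source used here states the scaling between arrays. The build in the headers is mm9, so RefSeq GRCm38.p6 served for names, promoters and chromosomes alone.

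Values were log2 processed intensity minus the 75th percentile of the array, without outlier spots, with spots of a probe and both arrays of a pool averaged. The 75th percentile ran from 2112 to 5104, lowest on both second arrays of pool 1 (2112 for WT, 2883 for CKO), 59.2% to 66.0% of spots stood well above background, and saturation flagged 0. Both arrays of pool 1 correlated across probes at 0.989 in CKO and 0.954 in WT. The number of arrays limits the precision. Of 84 member probes 61 were kept, each gene being read by its brightest probe. Genotypes were compared with limma 3.58.1 in R 4.3.3 (lmFit, then eBayes with an intensity trend, two-sided tests), adjusted by Benjamini-Hochberg over all 18327 genes, at 0.05; the procedure was tested on simulated data. A probe-level fit used every kept probe.

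Same-numbered pools share sex and age per the labels, and deviated together from their genotype means (correlations across genes 0.549, 0.334 and 0.131, against at most 0.123 for different numbers), so the pool number was run as a block. Nothing in the labels names a shared litter. Same-numbered pools also shared their slides, so the block cannot tell sex, age and slide apart. Members and gene lists were chosen with earlier results of these data known. Pool values are given for members of 9 domains, those at an unadjusted p under 0.05, the 6 of largest difference and those whose probes differ in sign, and the others by range; a gene's or probe's signed difference is printed only where it exceeds its SE over all pools, and its values per slide or without a pool stand beside it whatever their SE. Pool values of Airn, of dimmer probes and of Mcts1, Ttr, Rad21 and H13, were added after they were seen.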

Additional observations from a re-analysis of the deposited data

How the results depend on the processing

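Of the alternatives run (other scalings, background corrections, probe filters, designs, weights and pools left out), 0 brought a member past the adjusted threshold. Over 18 members with a given difference, 429 recomputed differences kept their direction and 2 turned, both on slide 2 alone (H19 at -0.12, Peg12 at 0.13). These members were picked for differences over their SE in the same pools, and several settings return the same estimate. Kept directions were therefore largely fixed in advance and are no separate evidence. The lowest adjusted p of a member was 0.0556, for Peg3 with array weights, where its difference was 1.35. With the pool number as a replicate block, 0.573% of all genes passed, against 0.0437% without it, and 0 imprinted members either way; the block changed the call of Ctcf and of no member. The share of all genes was 0.0273% with quantile scaling, with normexp background and with the mean of a gene's probes, 0.0290% with probes above background on all arrays, 0.0199% with no filter on dim probes, 0.0164% with the deposited series values, 0% (0 genes) on slide 2 alone, 0.671% with first arrays alone, 0.584% without the second array of WT pool 1 and 1.53% with array weights. It ran from 0% to 0.115% with 1 pool left out, the highest without WT pool 1. In settings chosen after seeing the data, the replicate block gave 0.311% without the second array of WT pool 1, 0.376% with quantile scaling and 0.382% with first arrays alone, with 0 members each. The median difference of paternally expressed members was 0.0367 with median scaling and 0.0452 with the mean of a gene's probes, and ran from 0.0345 to 0.0982 with 1 pool left out. That of maternally expressed members changed sign, with -0.0267 under median scaling, -0.0171 on slide 2 alone and -0.0361 to 0.0502 with 1 pool left out. With a pool left out, the pair left is assumed to vary like the other genotype. With 3 pools per genotype, 9 members not above background and 95% intervals wider than the differences, a moderate difference in a member may not have been detectable.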
